A study of Mus musculus with 380 samples.

Results

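Prdm1, Maf and 4 genes tied to their inhibitory programme were followed through single T cells from mouse tumours. The members were fixed by name: the transcription factor genes Prdm1, Maf and Nfil3, the cytokine gene Il10 and the surface protein genes Procr and Pdpn. All 6 were found among the 23420 genes of the file. T cells had been isolated from B16F10 tumours, a transplantable melanoma, growing in C57BL/6 mice that were either wild type (WT) or labelled IL27raKO, and profiled by Smart-seq2, a full-length RNA-seq protocol for plates of single cells. Il27ra encodes a chain of the receptor for interleukin-27 (IL-27). Each of 4 plates held 94 single cells and 1 population well made from many cells: CD8 cells from WT or KO-labelled mice, and CD4 cells from WT or KO-labelled mice. The titles carry 1 mouse code per genotype, no label gives an age, a number of animals or the design of the deletion, and the protocol text mentions CD8 cells only. The WT CD4 titles carry p2 where the others carry p1, and what this means is not stated.

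Prdm1 encodes Blimp-1, a zinc finger repressor that drives terminal differentiation of lymphocytes. Maf encodes c-Maf, a leucine zipper factor that activates Il10 and other cytokine genes in T cells. IL-27 is a cytokine known to induce interleukin-10, an anti-inflammatory cytokine, in T cells, and Blimp-1 and c-Maf are known to act together on a shared set of co-inhibitory receptor genes. Procr, the endothelial protein C receptor, and Pdpn, the glycoprotein podoplanin, are surface proteins counted in that set. Nfil3 encodes a leucine zipper factor known to promote Il10 and Havcr2 expression.

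The 6 genes lie on 6 chromosomal stretches of GRCm38, all protein coding. Prdm1 spans chromosome 10 from 44437177 to 44528501 on the minus strand. Maf spans chromosome 8 from 115682942 to 115707794 (minus) and Il10 spans chromosome 1 from 131019845 to 131024974 (plus). Nfil3 spans chromosome 13 from 52967209 to 52981073 (minus), Procr chromosome 2 from 155751117 to 155755471 (plus) and Pdpn chromosome 4 from 143267431 to 143299564 (minus). RefSeq promoter windows on GRCm38.p6, from 250 bases before to 50 bases after the start, were matched for 4 of the 6 genes: Prdm1, Nfil3, Procr and Pdpn. Those of the repressor Prdm1 and of the scarcely detected pair Procr and Pdpn are shown so that a regulator can be set beside its proposed targets. They come from chr10:44458699-44458998 on the minus strand, which is inside the annotated gene body of Prdm1, chr2:155750967-155751266 on the plus strand and chr4:143299515-143299814 on the minus strand. Capitals mark matches to the AP-1 motif, which BATF and JUN proteins recognise.
Prdm1: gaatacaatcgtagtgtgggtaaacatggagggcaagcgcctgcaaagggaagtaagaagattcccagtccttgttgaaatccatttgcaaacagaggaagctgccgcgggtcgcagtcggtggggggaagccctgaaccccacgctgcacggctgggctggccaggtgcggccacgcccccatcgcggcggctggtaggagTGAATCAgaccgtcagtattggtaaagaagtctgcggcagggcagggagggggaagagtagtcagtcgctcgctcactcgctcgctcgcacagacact
Procr: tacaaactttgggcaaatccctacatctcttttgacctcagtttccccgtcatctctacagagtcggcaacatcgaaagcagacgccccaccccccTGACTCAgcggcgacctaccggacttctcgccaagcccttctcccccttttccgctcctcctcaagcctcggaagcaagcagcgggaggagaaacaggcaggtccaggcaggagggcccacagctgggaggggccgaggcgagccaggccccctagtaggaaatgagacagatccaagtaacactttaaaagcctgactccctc
Pdpn: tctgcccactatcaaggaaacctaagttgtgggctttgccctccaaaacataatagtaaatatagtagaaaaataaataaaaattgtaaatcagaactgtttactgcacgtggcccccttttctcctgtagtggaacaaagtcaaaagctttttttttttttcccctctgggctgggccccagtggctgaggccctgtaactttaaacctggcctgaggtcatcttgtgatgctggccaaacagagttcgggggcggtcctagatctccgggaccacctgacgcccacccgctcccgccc
The AP-1 letters TGANTCA matched on both strands in Procr, as TGACTCA, and in Prdm1, as TGAATCA starting 48 bases before the start. They matched neither Pdpn nor Nfil3, and 7.81% of 32851 promoter windows of this length hold them. The c-Maf half-site TGCTGA, the Blimp-1 letters AGNGAAAG and the NFIL3 letters TTANNTAA matched none of the 4 windows on either strand. They were present in 19.5%, 8.63% and 6.00% of all windows. The letters were chosen with these sequences in view, and a match is a description of the sequence only.

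A cell was kept when at least 1000 genes exceeded 1 FPKM, a read density corrected for gene length and library size,, and a gene above 1 FPKM counted as detected. Of the 94 cells on each plate, the filter left 72 for WT CD8, 80 for KO-labelled CD8, 79 for WT CD4 and 73 for KO-labelled CD4. Their median numbers of genes were 3168, 2508, 2045 and 2218, and 36.1% of WT CD8 cells exceeded 4000 genes against 5.06% to 7.50% elsewhere. Mki67 or Top2a, genes of dividing cells, was detected in 50% of CD8 cells from WT and 12.5% from KO-labelled tumours, and in 22.8% and 16.4% of the CD4 cells. Between 95.9% and 100% of kept cells had a CD3 chain transcript, by plate, and the coreceptor of the other lineage in at most 5.56%. Il27ra itself was still present under the KO label, in 61.3% of CD8 cells (65.3% in WT) and 47.9% of CD4 cells (43.04% in WT). Its well levels were lower there, with 85.3 against 157.02 FPKM in CD8 and 72.7 against 243.4 in CD4. The mean over cells was 68.3 against 111.4 FPKM in CD8 and 82.5 against 110.5 in CD4. On the scale of log2(FPKM + 1) the means differed by -0.44 in CD8 and 0.09 in CD4 cells, KO-labelled minus WT. Gene-level values do not show which exons were read, so the groups are called KO-labelled. Each group is 1 plate and cells are not replicates, so no test was run between plates, and the exact 95% intervals on shares cover counting error only. Genotype cannot be told apart from plate or mouse.

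Prdm1 was detected least often in KO-labelled CD8 cells. It was found in 11.3% of them (9 of 80, interval 5.28 to 20.3). The share was 36.1% in WT CD8 (26 of 72, 25.1 to 48.3), 36.7% in WT CD4 (29 of 79, 26.1 to 48.3) and 27.4% in KO-labelled CD4 cells (20 of 73, 17.6 to 39.1). The lowest and the median FPKM were 0 on every plate. The highest cells reached 174.7 FPKM in WT CD8, 290.2 in KO-labelled CD8, 270.1 in WT CD4 and 210.3 in KO-labelled CD4. The values of all plates thus overlapped. The intervals of WT CD8, WT CD4 and KO-labelled CD4 overlapped one another, and that of KO-labelled CD8 overlapped only that of KO-labelled CD4. Among Prdm1-detected cells the median level was 42.8 FPKM for WT and 26.03 for KO-labelled CD8, and 41.9 and 38.3 for CD4. The population wells had 33.6 and 18.7 FPKM for CD8 and 36.8 and 31.2 for CD4, with the KO-labelled CD8 well again lowest. In these bulk wells, fewer cells of a type and less RNA per cell cannot be told apart.

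Maf separated the plates more widely than Prdm1. It was detected in 52.1% of KO-labelled CD4 cells (38 of 73, 40.04 to 63.9), 34.2% of WT CD4 cells (27 of 79, 23.9 to 45.7) and 19.4% of WT CD8 cells (14 of 72, 11.1 to 30.5). In KO-labelled CD8 cells it was detected in 1 of 80, or 1.25% (0.032 to 6.77). Neighbours among the first 3 plates had overlapping intervals, while that of KO-labelled CD8 lay below all others. The median FPKM was 0 on 3 plates and 2.19 in KO-labelled CD4 cells, and the lowest was 0 on all. The highest values were 186.8 FPKM in WT CD8, 64.5 in the single KO-labelled CD8 cell, 359.5 in WT CD4 and 636.5 in KO-labelled CD4. The wells followed the same order, with 75.2 FPKM in KO-labelled CD4, 40.4 in WT CD4, 10.8 in WT CD8 and 2.06 in KO-labelled CD8.

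**Figure D1:**
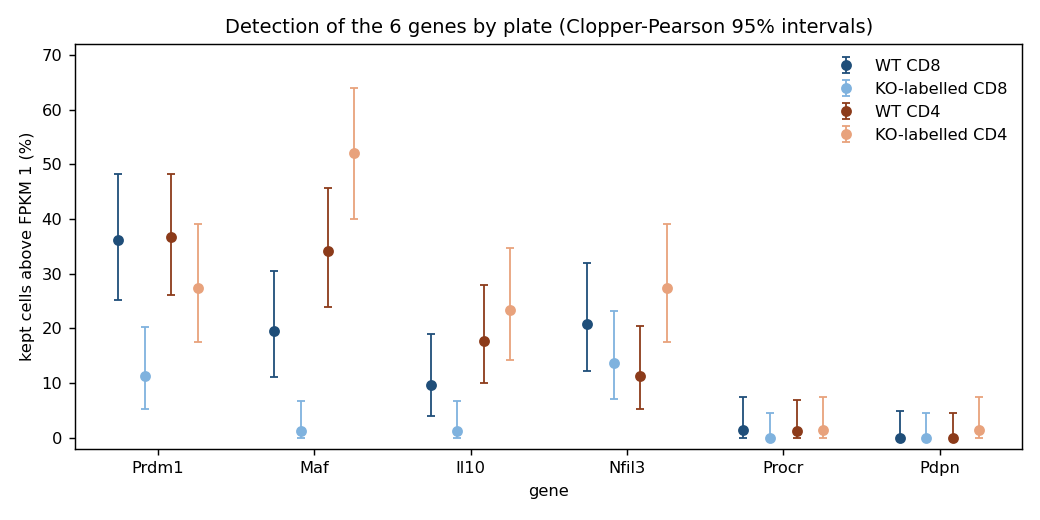
Percent of kept cells above FPKM 1 (vertical axis) for each of the 6 genes (horizontal axis), 1 point per plate with its Clopper-Pearson 95% interval. Maf runs from 1.25% in KO-labelled CD8 to 52.1% in KO-labelled CD4 cells, and Procr and Pdpn stay at or below 1.39% on every plate.

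Il10 was found in few cells, some with very high levels. It was detected in 23.3% of KO-labelled CD4 cells (17 of 73, 14.2 to 34.6), 17.7% of WT CD4 cells (14 of 79, 10.04 to 27.9) and 9.72% of WT CD8 cells (7 of 72, 3.999 to 19.01). In KO-labelled CD8 cells 1 of 80 had it. The median FPKM was 0 on every plate, and the highest cell had 13570 FPKM in KO-labelled CD4, 4753 in WT CD4, 3351 in KO-labelled CD8 and 1385 in WT CD8. That single cell held 100% of the Il10 signal of the KO-labelled CD8 plate, and the highest cell of the other plates held 38.98% to 68.05%. The mean over cells, 41.9 FPKM in KO-labelled and 28.3 in WT CD8, therefore ran against the share of cells. The wells gave 1.15 FPKM in KO-labelled CD8 and 52.97 in WT CD8, a level 46.1-fold lower, in the direction of the shares. In CD4 the wells held 264.5 FPKM for the KO label and 378.9 for WT, against the order of the shares, whose intervals overlapped. Among cells with at least 2000 genes the CD4 shares also turned round, with 31.7% in WT and 22.9% under the KO label.

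Nfil3 was found most often on the KO-labelled CD4 plate, in 27.4% of cells (20 of 73, 17.6 to 39.1), 20.8% of WT CD8 (15 of 72, 12.2 to 32.02), 13.8% of KO-labelled CD8 (11 of 80, 7.07 to 23.3) and 11.4% of WT CD4 cells (9 of 79, 5.34 to 20.5). All intervals overlapped. Each plate had a lowest and median value of 0, and the highest cell reached 349.1 FPKM in WT and 528.2 in KO-labelled CD8, and 640.2 and 1048 in CD4. When Nfil3 was detected it was seldom low: the lowest detected values were 17.3 FPKM (WT) and 61.7 (KO-labelled) in CD8, and 49.8 and 48.2 in CD4. The wells had 24.3 and 34.7 FPKM in CD8 and 35.7 and 65.03 in CD4, WT first, so the 2 CD8 wells were ordered against the shares of cells.

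Procr and Pdpn were near absent from these T cells. A single cell had Procr on the WT CD8 plate (1 of 72, 1.39%), the WT CD4 plate (1 of 79, 1.27%) and the KO-labelled CD4 plate (1 of 73, 1.37%). It was found in 0 of 80 KO-labelled CD8 cells, where 3 cells would be 3.75% and the exact interval ends at 4.51%. The 3 cells had 95.5, 655.1 and 49.5 FPKM. Pdpn was found in 1 of 73 KO-labelled CD4 cells, at 54.3 FPKM. It was found in 0 of 72 WT CD8, 0 of 80 KO-labelled CD8 and 0 of 79 WT CD4 cells, where 3 cells would be 4.17%, 3.75% and 3.797% and the exact intervals end at 4.99%, 4.51% and 4.56%. For scale, the coreceptor Cd4 was detected in 5.56% of cells on the WT CD8 plate (4 of 72), with a median of 3.01 FPKM in those cells, below the Procr and Pdpn values. The highest of those cells had 362.4 FPKM of Cd4, above all the Procr and Pdpn values except 655.1.

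The population wells showed Procr more plainly than the cells, and Pdpn not at all. Procr stood at 27.1 FPKM in the WT CD8 well, 9.28 in WT CD4 and 3.99 in KO-labelled CD8, and was listed at 0 in KO-labelled CD4. Pdpn was listed at 0 in all 4 wells. Both genes are also made by stromal cells, so the fibroblast and endothelial markers were read beside them. Of 6 fibroblast markers, 0 or 1 was above FPKM 1 in each well, with a summed level of 0 to 1.96 FPKM, and Col3a1, Pdgfra, Pdgfrb and Dcn were at 0 in all 4. The 5 endothelial markers summed to 5.63 FPKM in WT CD8, 34.3 in KO-labelled CD8, 97.2 in WT CD4 and 83.2 in KO-labelled CD4. Of these 5, 1 to 3 were above FPKM 1 in each well, and Cdh5 and Lyve1 were at 0 in all 4. The WT CD8 well had the most Procr and the lowest endothelial sum, and the source of Procr in the wells was not tested. Myeloid markers were high in the wells: 7 macrophage and monocyte markers summed to 4551 FPKM in WT CD8, 4613 in KO-labelled CD8, 299.8 in WT CD4 and 4357 in KO-labelled CD4. The 6 dendritic cell markers summed to 3919, 1269, 40.6 and 2473 FPKM in the same order, highest in the well with the most Procr. Kept cells had such transcripts too. Their macrophage and monocyte sum had a median of 286.4 FPKM in WT CD8, 959.6 in KO-labelled CD8 and 0 on the CD4 plates. Its highest values were 7187 and 10882.5 FPKM in WT and KO-labelled CD8, and 73656.5 and 47234.5 in CD4. At least 3 of the 7 markers were in 0 cells of either CD8 plate, 2 WT CD4 and 3 KO-labelled CD4 cells. The part of myeloid transcripts in the well and cell values of the members was not tested. Among the 3 Procr cells and the Pdpn cell, the only stromal marker detected was Pecam1, in the WT CD8 Procr cell. All 4 had the CD3 chain gene Cd3e, at 125.8 to 325.7 FPKM.

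**Figure D2:**
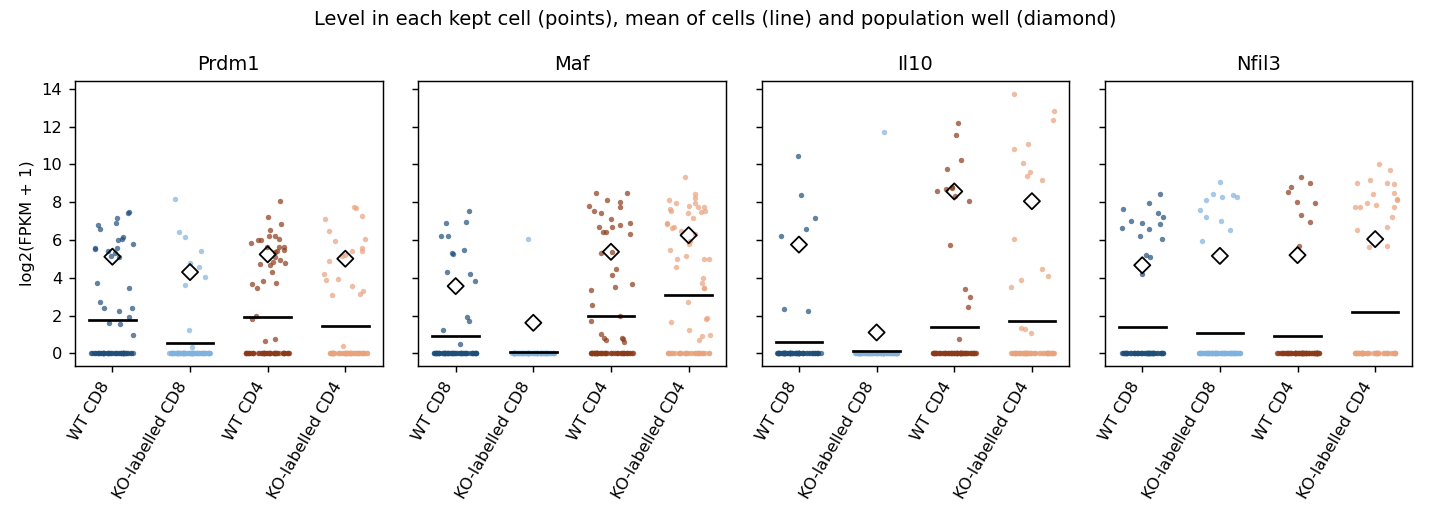
Level of Prdm1, Maf, Il10 and Nfil3 (vertical axis, log2(FPKM + 1)) in each kept cell by plate, with the mean of the cells as a line and the population well as an open diamond. Most cells sit at 0, except for Maf in KO-labelled CD4 cells, where the median is 2.19 FPKM. In KO-labelled CD8 cells Maf and Il10 each have 1 point above 0.

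The genotype comparison in CD8 cells asked whether the programme is lower where the IL-27 receptor is labelled as lost. Differences were taken between means of log2(FPKM + 1) for genes detected in at least 20% of the cells of either plate, a scale that understates changes of low genes, and were counted when at least 1 in size. Prdm1 was lower by that measure, with a difference of -1.20 (means 0.56 in KO-labelled and 1.76 in WT cells). Nfil3 had -0.32. Of 6599 genes compared, 19.5% were lower by at least 1 and 3.00% were higher, and the median was -0.46. Only Prdm1 and Nfil3 passed the filter, both through the WT plate alone. Below the filter, Maf had -0.86, Il10 -0.46, Procr -0.09 and Pdpn 0. The wells differed in level by 1.80-fold for Prdm1, 5.22-fold for Maf and 6.79-fold for Procr, each lower in the KO-labelled well, while Nfil3 was 1.43-fold higher there.

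The Prdm1 difference was smaller without dividing cells and without cells above 4000 genes. Without cells in which Mki67 or Top2a was detected, Prdm1 was found in 13.9% of WT (5 of 36) and 8.57% of KO-labelled CD8 cells (6 of 70), and the difference was -0.39. Without cells above 4000 genes it was found in 19.6% and 9.46%, with a difference of -0.56. In WT CD8, 15 of 17 cells with Prdm1 but not Maf had Mki67 or Top2a, at a median of 4499 genes. Of those with both Prdm1 and Maf it was 6 of 9, at 4020 genes. Division and gene number thus cannot be told apart here, and neither was tested as a cause. For Maf the shares without dividing cells were 13.9% in WT and 1.43% in KO-labelled CD8 cells. Without cells above 4000 genes they were 15.2% and 1.35%.

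In CD4 cells Maf and Nfil3 were higher on the KO-labelled plate and Prdm1 was not. Maf had a difference of 1.10 (means 3.10 and 2.00), Nfil3 1.29 (2.19 and 0.91), Il10 0.31 and Prdm1 -0.47. Of 4687 genes compared, 8.75% were higher by at least 1 and 1.51% were lower, with a median of 0.16. Of the 4 members that passed the filter, 2 were thus higher by at least 1 and 0 lower, and Nfil3 and Il10 passed it through the KO-labelled plate only. The wells had 1.86-fold more Maf and 1.82-fold more Nfil3 for the KO label. Foxp3, the regulatory T cell factor, moved with them: 57.5% of KO-labelled CD4 cells had it, against 34.2% in WT, while the wells held 701.9 FPKM of Foxp3 for the KO label and 840.5 for WT. Among cells with at least 2000 genes the Maf difference was 0.48 and that of Prdm1 was -1.45.

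Between lineages, Maf was higher in CD4 than in CD8 cells of both labels. These comparisons share plates with the ones above and are not independent of them. In WT the difference, CD4 minus CD8, was 1.06 for Maf, 0.15 for Prdm1 and -0.48 for Nfil3, where 2.16% of 6524 genes were higher and 37.2% lower by at least 1. The median of all genes was -0.76. Maf passed the filter through the CD4 plate alone, and Il10 stayed under it with 0.79. On the KO-labelled plates the differences were 3.02 for Maf, 1.56 for Il10, 1.13 for Nfil3 and 0.88 for Prdm1, where 4.63% of 5286 genes were higher and 11.1% lower. All 4 passed through the CD4 plate alone. The wells held 3.76-fold more Maf in CD4 in WT and 36.5-fold more under the KO label.

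Prdm1 and Maf were found together in WT cells of both lineages. Both were detected in 12.5% of WT CD8 cells (9 of 72, 5.88 to 22.4), 21.5% of WT CD4 (17 of 79, 13.1 to 32.2) and 17.8% of KO-labelled CD4 cells (13 of 73, 9.84 to 28.5). In KO-labelled CD8 cells the count was 0 of 80, with an exact interval up to 4.51%. In WT CD4 cells Maf was detected in 58.6% of cells with Prdm1 (17 of 29, 38.9 to 76.5) and 20% of cells without (10 of 50, 10.03 to 33.7), and these intervals did not overlap. In WT CD8 cells the shares were 34.6% (9 of 26, 17.2 to 55.7) and 10.9% (5 of 46, 3.62 to 23.6). In KO-labelled CD4 cells they were 65% (13 of 20, 40.8 to 84.6) and 47.2% (25 of 53, 33.3 to 61.4), with 34.2% of all cells having Maf without Prdm1.

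Cells with both factors also had more genes detected. In WT CD8 the median was 4020 genes with both, 4499 with Prdm1 only, 3436 with Maf only and 2425 with neither. In WT CD4 it was 2404 with both and 1856 with neither, and in KO-labelled CD4 2348 and 2083. Across cells, the Spearman correlation of Prdm1 and Maf given the number of genes was 0.40 in WT CD8 (n = 72), 0.44 in WT CD4 (n = 79), 0.08 in KO-labelled CD4 (n = 73) and -0.04 in KO-labelled CD8 (n = 80). The cells of a plate share their library preparation, and most values are 0.

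**Figure D3:**
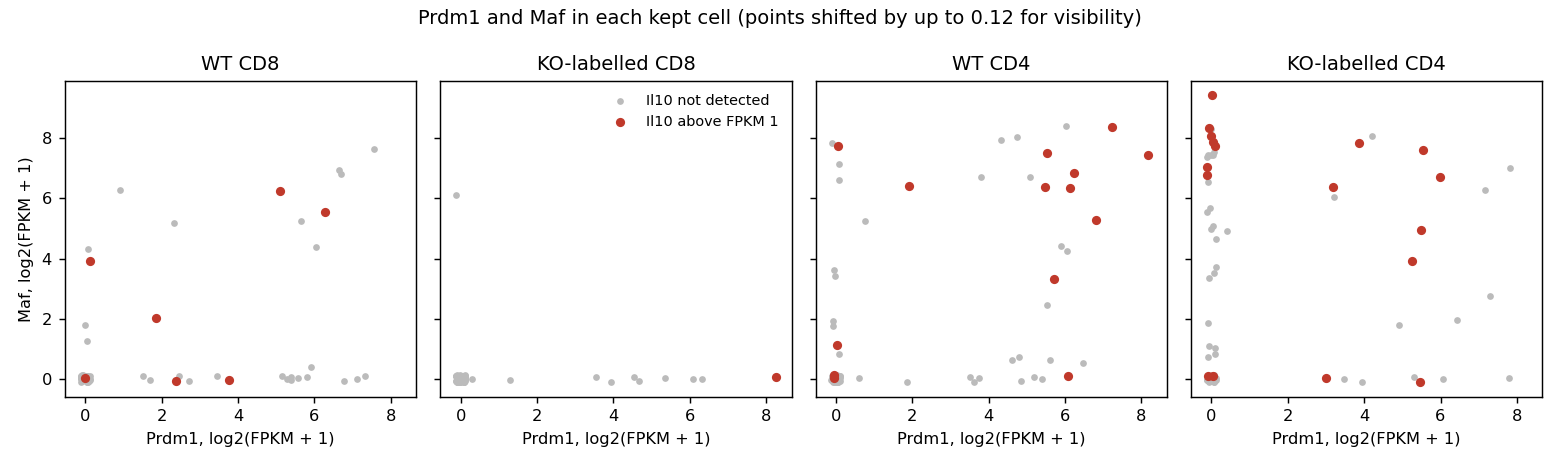
Prdm1 (horizontal axis) against Maf (vertical axis), both as log2(FPKM + 1), in each kept cell of the 4 plates, with Il10-detected cells in red. In WT CD4 cells 9 of the 14 Il10 cells have both factors, and the KO-labelled CD8 panel has no cell with both.

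Il10 was found mostly in cells with Prdm1, Maf or both. Of its positive cells, 6 of 7 in WT CD8, 1 of 1 in KO-labelled CD8, 12 of 14 in WT CD4 and 15 of 17 in KO-labelled CD4 had at least 1 of the factors. Over all kept cells of these plates the shares with at least 1 factor were 43.1%, 12.5%, 49.4% and 61.6%. The interval on 6 of 7 in WT CD8, 42.1 to 99.6, includes that plate's share of 43.1%. That on 1 of 1 in KO-labelled CD8, 2.5 to 100, includes 12.5%. On the CD4 plates the interval on 12 of 14 runs from 57.2 to 98.2, above 49.4%. The interval on 15 of 17 runs from 63.6 to 98.5, only just above 61.6%. In WT CD4, Il10 was detected in 52.9% of cells with both (9 of 17, 27.8 to 77.02), 8.33% with Prdm1 only (1 of 12), 20% with Maf only (2 of 10) and 5% with neither (2 of 40, 0.61 to 16.9). In KO-labelled CD4 the shares were 46.2% with both (6 of 13, 19.2 to 74.9), 28.6% with Prdm1 only (2 of 7), 28% with Maf only (7 of 25) and 7.14% with neither (2 of 28, 0.88 to 23.5). In WT CD8 they were 33.3% with both (3 of 9, 7.49 to 70.1), 11.8% with Prdm1 only (2 of 17), 20% with Maf only (1 of 5) and 2.44% with neither (1 of 41, 0.062 to 12.9). Only in WT CD4 did the intervals for both and neither not overlap. The single Il10 cell of the KO-labelled CD8 plate had Prdm1 and no Maf, and Il10 was in 0 of 70 cells with neither (exact interval up to 5.13%).

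Among cells with at least 2000 genes Il10 was again more frequent with both factors than with neither, but the intervals overlapped. In WT CD4 it was detected in 8 of 14 cells with both (28.9 to 82.3) and 2 of 13 with neither (1.92 to 45.4), at median gene numbers of 2674 and 2193. Cells with Prdm1 only, 1 of 9, then lay below those with neither. In KO-labelled CD4 it was 5 of 11 and 1 of 16, at 2418 and 2394 genes. In WT CD8 it was 3 of 9 and 1 of 31, at 4020 and 2747 genes. Without dividing cells the counts were 4 of 9 and 2 of 35 in WT CD4, 2 of 8 and 2 of 25 in KO-labelled CD4, and 1 of 3 and 1 of 29 in WT CD8.

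In CD4 cells Nfil3, like Il10, was more frequent with both factors than with neither. It was detected in 35.3% of WT CD4 cells with both (6 of 17, 14.2 to 61.7) and 0 of 40 with neither (exact interval up to 8.81%). In KO-labelled CD4 cells the shares were 53.8% (7 of 13, 25.1 to 80.8) and 10.7% (3 of 28, 2.27 to 28.2), and these intervals overlapped. In WT CD8 cells they were 44.4% (4 of 9, 13.7 to 78.8) and 14.6% (6 of 41, 5.57 to 29.2), with overlapping intervals. With Prdm1 only and Maf only, Nfil3 was in 1 of 12 and 2 of 10 WT CD4 cells. Under the KO label it was in 1 of 7 and 9 of 25. Nfil3-detected cells had medians of 3274 genes in WT CD4 and 2645 in KO-labelled CD4, against plate medians of 2045 and 2218. With at least 2000 genes, the counts with both and neither were 6 of 14 and 0 of 13 in WT CD4, and 7 of 11 and 2 of 16 in KO-labelled CD4. On the KO-labelled CD8 plate 10 of its 11 Nfil3 cells had neither factor, as did 87.5% of all its kept cells. Of the 3 Procr cells, 1 had both factors (WT CD4), 1 had Prdm1 only (WT CD8) and 1 had neither (KO-labelled CD4). The Pdpn cell had neither, and Il10 was at 0 in all 4 of these cells, so co-detection of these 2 genes with the factors could not be described at this depth.

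**Figure D4:**
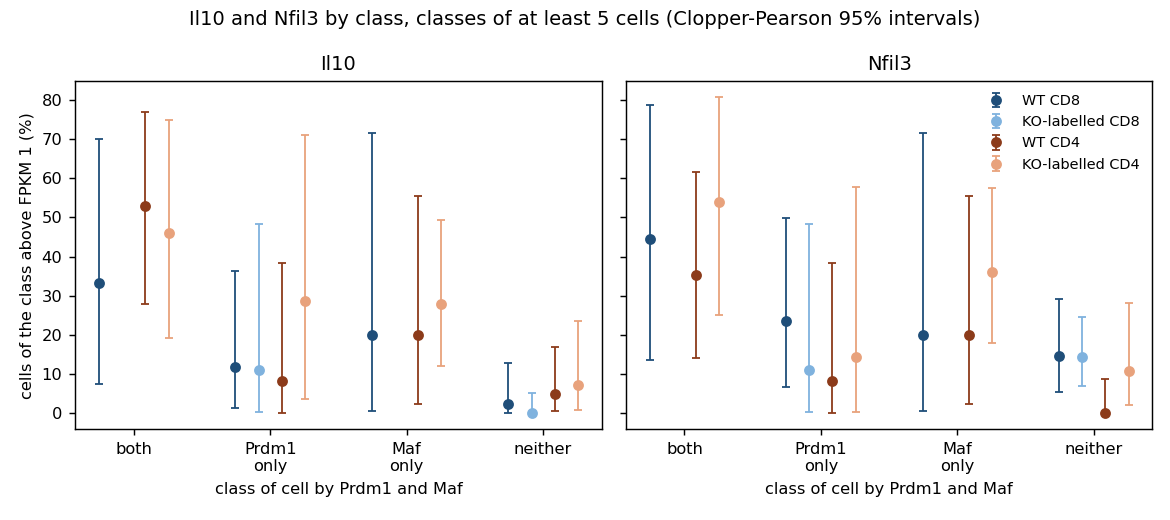
Share of cells above FPKM 1 (vertical axis, percent) for Il10 and Nfil3 in cells with Prdm1 and Maf both, 1 only or neither detected (horizontal axis). Bars are Clopper-Pearson 95% intervals and colours are plates. In WT CD4 cells Il10 stands at 52.9% with both and 5% with neither, and classes of fewer than 5 cells are left out.

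In CD4 cells the double-positive class was largely made of cells with Foxp3. Of CD4 cells with both factors, 14 of 17 in WT and 11 of 13 under the KO label had Foxp3, against 6 of 40 and 11 of 28 with neither. On the WT plate Prdm1 was detected in 66.7% of Foxp3-detected cells (18 of 27, 46.04 to 83.5) and 21.2% of the others (11 of 52, 11.1 to 34.7). Maf was detected in 62.96% (17 of 27, 42.4 to 80.6) and 19.2% (10 of 52, 9.63 to 32.5), and Il10 in 44.4% (12 of 27, 25.5 to 64.7) and 3.85% (2 of 52, 0.47 to 13.2). None of these 3 pairs of intervals overlapped. The median gene numbers were 2404 and 1891.

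On the KO-labelled plate the Foxp3-detected cells had Maf in a similar share and Prdm1 in a smaller one. Maf was found in 66.7% (28 of 42, 50.5 to 80.4) of Foxp3-detected and 32.3% (10 of 31, 16.7 to 51.4) of the other cells. Prdm1 was found in 33.3% (14 of 42, 19.6 to 49.5) and 19.4% (6 of 31, 7.45 to 37.5), and Il10 in 35.7% (15 of 42, 21.6 to 51.97) and 6.45% (2 of 31, 0.79 to 21.4). The Prdm1 interval of these Foxp3-detected cells overlapped that of WT, 46.04 to 83.5, and no test of the difference was possible with 1 plate each. Within Foxp3-detected cells, Il10 was in 8 of 14 WT cells with both factors and 4 of 13 without both. The KO-labelled counts were 6 of 11 and 9 of 31. Nfil3 was in 25.9% of Foxp3-detected and 3.85% of other WT CD4 cells, and in 30.95% and 22.6% of KO-labelled ones.

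Co-inhibitory receptors were detected more often where Prdm1 or Maf was. In WT CD8, all 31 cells with either factor had Pdcd1 (PD-1), Havcr2 (TIM-3) and Tigit, 30 had Lag3 and 28 had Ctla4. Among the 41 WT CD8 cells with neither, Pdcd1 was detected in 46.3% (30.7 to 62.6), Havcr2 in 34.1% (20.1 to 50.6), Lag3 in 51.2%, Tigit in 85.4% and Ctla4 in 31.7%. Of the cells with either factor 67.7% had Mki67, against 17.1% with neither, and their median gene numbers were 4282 and 2425. In the cells with at least 2000 genes, Pdcd1 was in 9 of 9 of the smaller class with both factors and in 18 of 31 with neither. Their median gene numbers, 4020 and 2747, still differed, so depth was not matched. Without dividing cells the Pdcd1 counts were 3 of 3 and 8 of 29, at 3009 and 2360 genes.

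On the other plates the sizes varied by gene and by class. In KO-labelled CD8 cells Havcr2 was in 50% of cells with either factor (5 of 10, 18.7 to 81.3) and 12.9% with neither (9 of 70, 6.05 to 23.01), while Tigit was in 70% and 71.4%. In KO-labelled CD4 cells with either factor, Lag3 was in 37.8% (17 of 45, 23.8 to 53.5), Havcr2 in 28.9% (13 of 45, 16.4 to 44.3) and Pdcd1 in 35.6% (16 of 45), and the Lag3 and Havcr2 intervals overlapped those with neither. In the smaller class with both factors, Lag3 was in 61.5% (8 of 13, 31.6 to 86.1) and Havcr2 in 53.8% (7 of 13, 25.1 to 80.8), against 10.7% (3 of 28, 2.27 to 28.2) and 7.14% (2 of 28, 0.88 to 23.5) with neither. Pdcd1 was in 25% with neither. In WT CD4 cells Ctla4 was in 88.2% with both (15 of 17, 63.6 to 98.5) and 55% with neither (22 of 40, 38.5 to 70.7). Their Lag3 shares were 29.4% and 15%. Foxp3 was in 11 of 13 KO-labelled CD4 cells with both and 11 of 28 with neither, and in 14 of 17 and 6 of 40 in WT. Gene numbers differed as given above, and the receptors were not split by Foxp3. With at least 2000 genes, Lag3 was in 8 of 11 KO-labelled CD4 cells with both and 2 of 16 with neither. In WT CD4 it was then in 3 of 14 and 3 of 13. Detection of 3 or more of these 5 receptors was seen in 9 of 9 WT CD8, 10 of 17 WT CD4 and 10 of 13 KO-labelled CD4 cells with both factors. With neither, the counts were 17 of 41, 11 of 40 and 5 of 28, and 20 of 70 in KO-labelled CD8. Markers of other cells were read beside these classes: at least 2 melanoma markers were in 2 of 9 WT CD8 cells with both and 8 of 41 with neither.

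**Figure D5:**
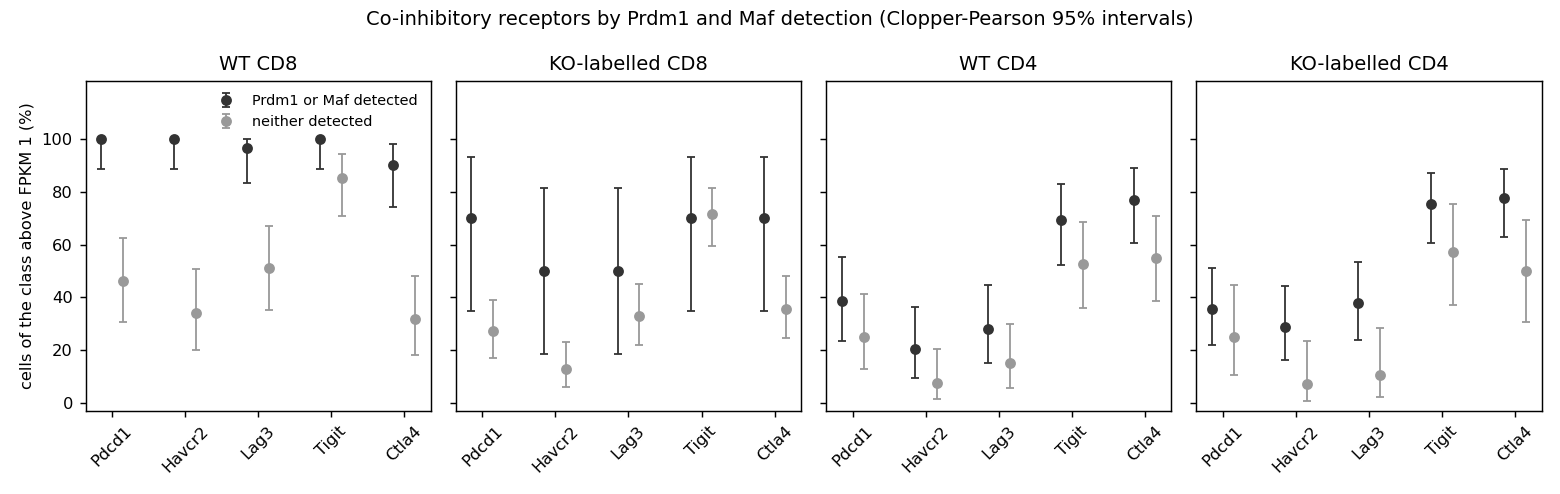
Share of cells above FPKM 1 (vertical axis, percent) for 5 co-inhibitory receptor genes (horizontal axis) in cells with Prdm1 or Maf detected (black) and with neither (grey), by plate, with Clopper-Pearson 95% intervals. In WT CD8 cells Havcr2 stands at 100% with either factor and 34.1% with neither.

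The wider pathway was read from 5 gene lists. In CD8 cells, KO-labelled minus WT, 12 of 16 co-inhibitory genes passed the filter. Of these, 6 were lower by at least 1 and 0 higher, with a median of -1.12, where 19.5% of all genes were lower and 3.00% higher, with a median of -0.46. Havcr2 and Entpd1 among the 6 passed through the WT plate alone. The ectoenzyme gene Nt5e was higher (1.08) but stayed under the filter, so it is not in the count of 0. The largest differences were those of Pdcd1 (-4.08), Havcr2 (-3.40), Lag3 (-3.05) and Tigit (-2.99). In CD4 cells 10 passed, with 2 higher and 0 lower and a median of 0.64, against 8.75% higher, 1.51% lower and a median of 0.16 over all genes. The 2 were Tigit with 1.46 and Nt5e with 1.00. The wells ran the other way for both, with 1334 FPKM of Tigit for the KO label and 2503 for WT. For Nt5e they held 106.8 and 111.6 FPKM. Between lineages, CD4 minus CD8, 2 of 13 were higher and 9 lower in WT, where 2.16% of all genes were higher and 37.2% lower. Of these, Nt5e passed through the CD4 plate alone, and Havcr2, Cd160, Cd244 and Klrc1 through the CD8 plate alone. Under the KO label 6 of 12 were higher and 3 lower, where the shares were 4.63% and 11.1%. Here Cd200r1, Nt5e and Entpd1 passed through the CD4 plate alone, and Cd160 and Klrc1 through the CD8 plate alone. The 7 genes of the IL-27 receptor and its signalling had 6 members compared in CD8, with 1 lower, the kinase gene Tyk2 with -1.64, and 7 in CD4 with none past 1. Their medians were -0.42 in CD8 and -0.56 in CD4 cells, against -0.46 and 0.16 over all genes. Of all genes, 19.5% were lower and 3.00% higher in CD8, and 1.51% and 8.75% in CD4.

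Among factors that act with or against Blimp-1 and c-Maf, 9 of 14 were compared in each genotype contrast. In CD8 cells 1 was higher, Tcf7 (3.35), a factor of memory cells, and 3 were lower: Ikzf3 (-1.96), Batf (-1.61) and Eomes (-1.56). Eomes passed the filter through the WT plate alone. The list median was -0.25, above the -0.46 of all genes, of which 3.00% were higher and 19.5% lower. In CD4 cells Foxp3 was higher (1.95) and Tcf7 lower (-1.75), with a list median of 0.39 against 0.16 over all genes. Of 9 genes known as Blimp-1 targets for repression, 3 passed the filter in each contrast. In CD8 cells Tcf7 had 3.35, the lymph node homing receptor gene Ccr7 1.91 and the growth regulator gene Myc 0.22, and Tcf7 and Ccr7 passed through the KO-labelled plate alone. In CD4 cells, Tcf7 had -1.75, Ccr7 -1.83 and Myc 1.19. Ccr7 passed through the WT plate alone and Myc through the KO-labelled plate alone. The CD4 wells had the same direction for Tcf7 and Ccr7. For Myc they ran the other way, with 37.7 FPKM for the KO label and 102.7 for WT. Of 8 genes known to be induced by c-Maf, Icos, a co-stimulatory receptor gene, passed throughout, with 0.62 in CD8 and 1.07 in CD4 cells (KO-labelled minus WT). Icos had 3.30 and 3.75 between lineages (CD4 minus CD8, WT and KO label). Il10 passed where given above.

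The genes whose pattern across cells was most like each factor included co-inhibitory and effector genes. Likeness was the Spearman correlation within a plate given the number of genes per cell, averaged over the 4 plates, for 3341 genes detected in at least 20% of the cells of each plate. For Prdm1 the first 5 were Pdcd1 (0.29), the granzyme gene Gzmb (0.26), the cohesin gene Rad21 (0.25), the actin-capping gene Capg (0.24) and Ctla4 (0.24). For Maf they were Ctla4 (0.36), Ypel5 (0.30), Gzmb (0.29), Ndfip1 (0.28), an adaptor of ubiquitin ligases, and the phosphatase gene Dusp1 (0.27). Averaged over 3 plates, without KO-labelled CD8, Pdcd1 stayed first for Prdm1 (0.27), while Ctla4 came to rank 6 and Gzmb to rank 31 (0.19). For Maf, Ctla4 stayed first (0.43), Glrx came second (0.35) and Ndfip1 fell to rank 7. With Maf, Ctla4 had 0.47 in WT and 0.14 in KO-labelled CD8 cells, and 0.39 and 0.44 in CD4 cells, where the KO-labelled CD8 value rests on 1 Maf-detected cell. With Maf, Il10 had 0.28 in WT CD8, 0.31 in WT CD4 and 0.36 in KO-labelled CD4 cells, against 0.14, 0.28 and 0.16 with Prdm1. In KO-labelled CD8 cells, with 1 Il10 cell, it had -0.02 with Maf and 0.34 with Prdm1. These are weak correlations of sparse values from cells of shared plates.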

How the data were processed

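The deposited table holds FPKM values, normalized by the authors with TMM (trimmed mean of M-values), per the file header and the labels. The submitters' processing notes name RSEM, Bowtie and mm10, without versions, and other steps are not given in the sources used here. All 380 columns matched a title, with 0 unmatched and 0 duplicated libraries. Reads per library could not be recovered: only 13.5% of 244576 low values lay within 0.05 of a whole step, where evenly spread values give 10%, so precision is described by genes per cell. The wells held 10450 to 10946 genes.

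Detection (FPKM above 1), the filter of 1000 genes, the pseudocount of 1 and Clopper-Pearson 95% intervals were computed with Python 3.11.15, numpy 2.4.6, pandas 2.3.3 and scipy 1.17.1. A count of 0 is given with the exact upper bound and, for Procr and Pdpn, the share that 3 cells would be. The computations were tested on simulated data. No doublet caller was run: 9 kept cells had both Cd4 and Cd8a.

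The members and gene lists were chosen with earlier results of these data known. Named are all 6 members, the 5 genes most like Prdm1 and Maf, and from the lists genes among the 4 with the largest differences among those detected in at least 10% of the cells of a plate. Myc in CD8 was named after its value was seen. Annotation came from GENCODE M21 (GRCm38, the assembly of mm10) and promoters from RefSeq (GRCm38.p6).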

Additional observations from a re-analysis of the deposited data

Results flagged for a closer look

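Maf had opposite signs in the 2 lineages. The difference of mean log2(FPKM + 1), KO-labelled minus WT, was -0.86 in CD8 and 1.10 in CD4 cells, and the population wells had the same signs, with -1.94 and 0.88. Each sign rests on 1 plate per group, and the difference between lineages was not tested.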

How the results depend on the processing

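No paired analysis was possible because each group is 1 plate and no label pairs cells across plates. Over all alternatives, 10 detection shares, 2 co-detection shares, 3 target shares and 11 receptor shares left their counting intervals, 18 differences came past 1 in size, 22 fell under it and 2 turned sign with a size past 1. The settings without dividing cells, and the 3-plate likeness, were chosen after seeing the data. Depth limits every share, and 1 positive cell sets each Procr value.

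With at least 2000 genes, WT CD4 shares were 56.1% for Prdm1, 46.3% for Maf, 31.7% for Il10, 0% for Procr (also 0% among cells with both factors) and 34.1% for Prdm1 with Maf, and Tigit was in 100% of KO-labelled CD4 cells with both. The differences became -1.45 for Prdm1 and 0.48 for Maf in CD4 (KO-labelled minus WT), 1.05 for Prdm1 and 1.74 for Il10 in WT (CD4 minus CD8), and 1.20 for Prdm1 under the KO label. With all cells they were -0.87 for Prdm1 in CD8, 0.73 for Maf and 0.94 for Nfil3 in CD4, 0.93 for Maf between WT lineages and 0.80 for Nfil3 between KO-labelled lineages.

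Without cells above 4000 genes, Prdm1 was in 19.6% and Procr in 0% of WT CD8 cells, Procr in 0% of KO-labelled CD4 cells (0% with neither factor) and Ctla4 in 17.6% of WT CD8 cells with neither. The differences were -0.56 for Prdm1 in CD8 and 0.97 for Nfil3 between KO-labelled lineages. Without dividing cells, Prdm1 was in 13.9% and Procr in 0% of WT CD8 cells, Procr in 0% of KO-labelled CD4 cells (0% with neither), and Maf in 60% of the Prdm1-detected WT CD8 cells. In WT CD8 cells with neither factor, Pdcd1, Havcr2, Lag3 and Ctla4 were then in 27.6%, 17.2%, 34.5% and 17.2%, and Tigit was in 100% of KO-labelled CD4 cells with both. The differences were -0.39 for Prdm1 in CD8, 0.86 for Maf between WT lineages and 0.79 for Nfil3 between KO-labelled lineages. Above FPKM 10, Tigit was in 63.3%, 42.3% and 29.5% of WT CD8, KO-labelled CD8 and WT CD4 cells with neither factor, and Ctla4 in 100% of KO-labelled CD4 cells with both.

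With a pseudocount of 10 the differences were -0.53 for Prdm1 in CD8, 0.58 for Maf and 0.76 for Nfil3 in CD4, 0.57 for Maf between WT lineages, and 0.96 for Il10 and 0.69 for Nfil3 between KO-labelled lineages. With 0.1 they were -1.46 for Maf in CD8, 1.09 for Il10 between WT lineages and 1.42 for Prdm1 between KO-labelled lineages. As log2 ratios of mean FPKM they were -3.69 for Maf in CD8, 0.76 for Maf, 1.56 for Il10 and -3.61 for Procr in CD4, 2.45 for Il10 and 2.64 for Procr between WT lineages, and 1.26 for Prdm1 between KO-labelled lineages. In the population wells they were -0.82 for Prdm1, -1.94 for Maf, -4.65 for Il10 and -2.49 for Procr in CD8, and 0.88 for Maf, -3.36 for Procr and 0.85 for Nfil3 in CD4. Between lineages the wells gave 2.82 for Il10 and -1.45 for Procr in WT, and -2.32 for Procr and 0.89 for Nfil3 under the KO label. Procr thus turned sign against the cells, where it had 0.03 in WT and 0.08 under the KO label. The cause was not tested. Another 11 sign turns had both values under 1 in size. In CD8, Nfil3 (-0.32) had 0.05 without cells above 4000 genes, 0.36 by mean FPKM and 0.49 in the wells, and Il10 (-0.46) had 0.57 by mean FPKM. In CD4, Il10 (0.31) had -0.75 with at least 2000 genes and -0.52 in the wells, and Procr (-0.04) had 0.12 with at least 2000 genes. Between WT lineages, Nfil3 (-0.48) had 0.43 by mean FPKM and 0.53 in the wells, Prdm1 (0.15) had -0.002 by mean FPKM and Procr (0.03) had -0.11 with at least 2000 genes.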
